A study of Homo sapiens with 4 samples.

Results

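NRF2, the transcription factor encoded by NFE2L2, its inhibitor KEAP1 and 7 genes known as NRF2 targets (NQO1, TXNRD1, SRXN1, HMOX1, OSGIN1, ME1 and LOC344887) were examined in a pair of head and neck squamous cell carcinoma (HNSCC) lines and their cisplatin-resistant derivatives. These 9 genes, of 43305 gene names on the array, were chosen from differences between each resistant array and its parental array, so the differences of the members are a description and carry no test. All probes that bear a member's name were taken, and each member had 1 probe. HN4 and HN30 are established human HNSCC lines. HN4/DDP and HN30/DDP were derived from them by raising the dose of the DNA-damaging platinum drug cisplatin step by step, and were kept in medium with 20 μM cisplatin, for 48 h according to the labels. No drug is named for the parental lines, so resistance and the presence of cisplatin cannot be told apart. RNA of each line was labelled with Cy3 and measured on 1 Agilent array, which gives 4 arrays and 1 array per condition. Levels are log2 processed intensities from which the 75th percentile of that array was taken off, and a level is compared only with the same probe on another array. A difference is the level in the resistant line minus the level in its parental line. The error beside it is the scanner SD, which follows from the intensity error that the scanner software gives for the spots and leaves out the spread between cultures.

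NRF2 is held in the cytoplasm by KEAP1, which brings it to the CUL3 ubiquitin ligase for degradation. Oxidants and electrophiles react with cysteines of KEAP1, NRF2 then builds up, enters the nucleus with a small MAF protein and binds antioxidant response elements near genes of thiol, NADPH, haem and xenobiotic metabolism. Since NRF2 is controlled mainly as a protein, its target genes are commonly read as a measure of the pathway, and mutations of NFE2L2, KEAP1 and CUL3 are known in squamous carcinomas.

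The probes of 4 members are printed 5′ to 3′ because the account below turns on them. NFE2L2 was not well above background on any array, TXNRD1 and OSGIN1 were among the targets higher in HN4/DDP, and LOC344887 had the largest difference of the members in each line. The first 3 lie in coding sequence and the fourth in a noncoding RNA. In the scanner files' hg19 coordinates they lie at chr2:178095693-178095752 (NFE2L2, minus strand), chr12:104732949-104733008 (TXNRD1, plus strand), chr16:83999149-83999208 (OSGIN1, plus strand) and chr3:185698542-185698601 (LOC344887, plus strand).
NFE2L2: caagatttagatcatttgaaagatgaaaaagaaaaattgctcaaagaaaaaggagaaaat
TXNRD1: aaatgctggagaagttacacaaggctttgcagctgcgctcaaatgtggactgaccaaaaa
OSGIN1: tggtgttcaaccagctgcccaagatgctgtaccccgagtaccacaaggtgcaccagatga
LOC344887: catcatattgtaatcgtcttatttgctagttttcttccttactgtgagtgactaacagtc
The NFE2L2 probe has a GC content of 25%, and 0.596% of the 58201 probes have a lower one, while the median probe has 43.3%. The LOC344887 probe has 35%, TXNRD1 has 45% and OSGIN1 has 55%. The probes of the other members lie at chr19:10597262-10597321 (KEAP1), chr16:69744274-69744333 (NQO1), chr20:627563-627622 (SRXN1), chr22:35790122-35790181 (HMOX1, plus strand) and chr6:83920796-83920855 (ME1), on the minus strand except for HMOX1. The longest run that any of these 4 probes shares with another probe of the array is 17 bases for NFE2L2 and 14 bases for the others.

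Each array had a 75th percentile of signal between 444.4 and 496.1. The scanner software marked a share of spots as well above background that was 55.3% to 63.6% and highest in HN30/DDP. No spot was saturated. Of 6 squamous epithelial markers, 6 were well above background in HN4, HN4/DDP and HN30 and 5 in HN30/DDP, where KRT6A was not. The keratin KRT5 had differences of -4.05 (HN4/DDP) and -1.93 (HN30/DDP). KRT6A had 3.32 in HN4/DDP and was at least 183-fold lower in HN30/DDP. The others had 2.33 and 0.22 (KRT14, with 3.95 and 3.38 from a second probe), 1.84 and 0.55 (DSG3), -0.82 and -0.059 (TP63), and 0.15 and -0.96 (SFN). Of 4 fibroblast markers, the collagen gene COL1A1 alone was well above background, on every array, with differences of 1.73 and 2.43, while COL1A2, DCN and LUM were on none. Of 4 immune markers 2 to 3 were well above background. PTPRC had differences of -0.10 and 0.16 and CD14 of 0.56 and 3.49, and CD3E was well above background in HN30/DDP alone. Of 3 endothelial markers 2 to 3 were well above background, with CDH5 at -0.62 and -0.59. PECAM1 was at least 2.05-fold lower in HN4/DDP and at least 1.64-fold higher in HN30/DDP. VWF was at least 5.37-fold higher in HN4/DDP and higher by 1.49 in HN30/DDP, but another probe, well above background on all 4 arrays, gave -0.038 and 0.46. The 6 reference genes had a median difference of -0.37 in HN4/DDP, with 6 of 6 below 0, and of -0.60 in HN30/DDP, with 5 of 6 below 0. Over all genes that at least 1 array of the pair showed well above background, the median difference was -0.077 in HN4/DDP and 0.057 in HN30/DDP. The part of these markers and shifts in the values below was not tested. RNA was taken from whole cultures, so fewer cells that express a gene and less of its RNA per cell cannot be told apart.

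NFE2L2 itself gave no usable value. Its level was -5.93 in HN4 against -7.26 in HN4/DDP, and -4.91 in HN30 against -5.80 in HN30/DDP, and the probe was not well above background on any array. The lowest level well above background was -4.76, -4.99, -4.63 and -4.94 on the same arrays, so no fold is given. A probe at background sets no limit on the amount of NRF2 protein, and the part of the low GC content in the signal was not tested.

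KEAP1, the sensor and inhibitor, was about as high in HN4/DDP as in HN4 and lower in HN30/DDP than in HN30. Its level was 2.84 in HN4 against 2.65 in HN4/DDP, and 3.0 in HN30 against 1.78 in HN30/DDP. HN30/DDP stood apart as the lowest of the 4. The difference was -0.19 (scanner SD 0.07) in HN4/DDP and -1.22 (scanner SD 0.07) in HN30/DDP, the latter 2.33-fold lower. The probe is spotted 10 times, and the copies on an array had an SD of 0.019 to 0.027. In HN30/DDP the reference genes had differences of -1.44 (HPRT1), -0.90 (GAPDH), -0.68 (PPIA), -0.51 (TBP), -0.31 (ACTB) and 0.34 (B2M), and 90.3% of the 28330 genes had a larger difference than KEAP1. Its difference in HN30/DDP was between -1.64 and -0.88 over 9 alternative settings.

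**Figure D1:**
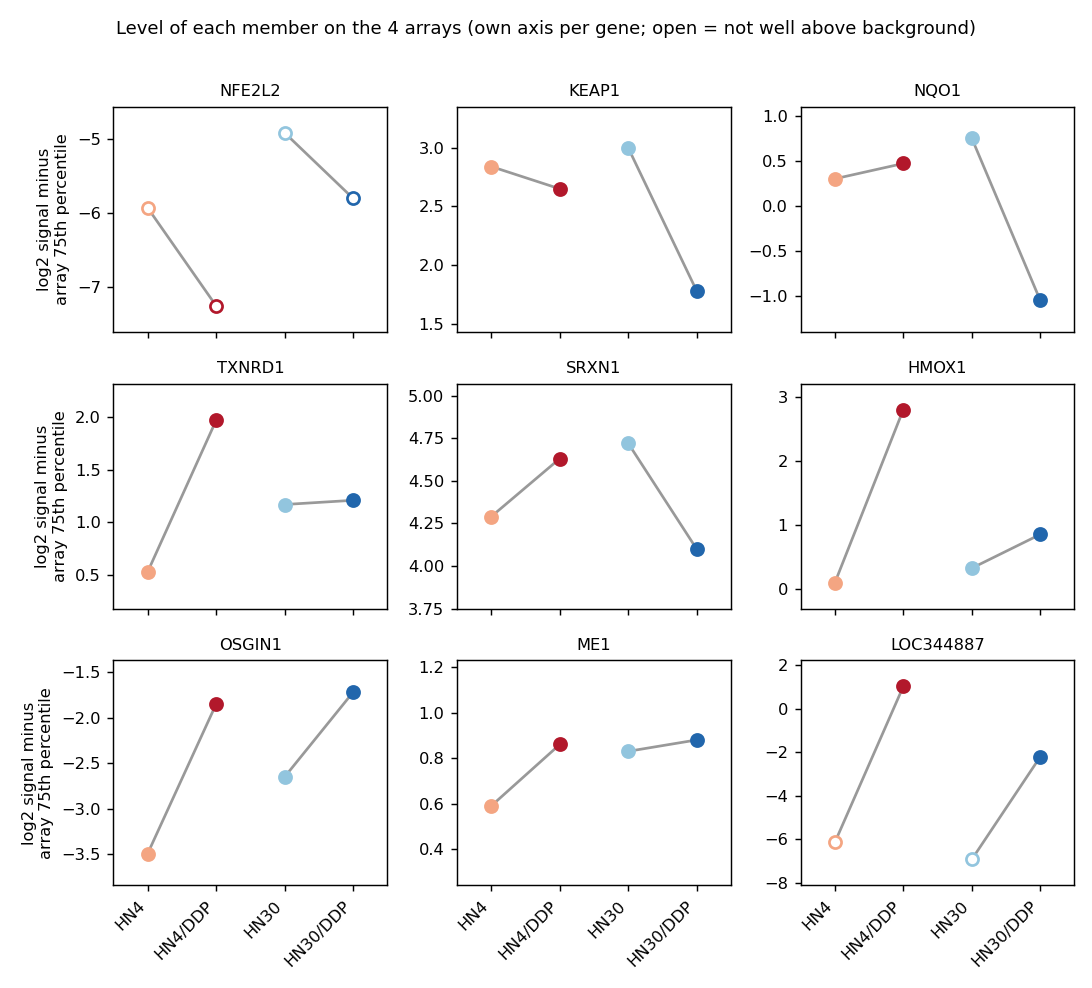
Levels of the 9 members on the 4 arrays, each gene on its own vertical axis (log2 signal after subtraction of the 75th percentile of the array), 1 array per condition. Lines join each parental line with its resistant derivative, and open circles mark signals not well above background. NFE2L2 is open on every array, LOC344887 is open on both parental arrays, and KEAP1 and NQO1 are lowest in HN30/DDP.

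Among the targets, HMOX1 and LOC344887 had the largest differences in HN4/DDP. HMOX1 encodes haem oxygenase-1, which opens haem to biliverdin, iron and carbon monoxide. Its level was 0.093 in HN4 against 2.81 in HN4/DDP, and 0.32 in HN30 against 0.85 in HN30/DDP. HN4/DDP lay far above the other 3 arrays. The difference was 2.72 (scanner SD 0.07), or 6.59-fold, in HN4/DDP and 0.52 (scanner SD 0.06), or 1.44-fold, in HN30/DDP. In HN4/DDP 1.94% of the 26853 genes had a larger difference, against 31.3% of genes in HN30/DDP. HMOX1 is also spotted 10 times, with an SD among copies of 0.019 to 0.044. When arrays were scaled to their median, which moved the median difference of all genes in HN30/DDP from 0.057 to -0.36, the difference in HN30/DDP became 0.10.

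LOC344887 is the name on the array for NMRAL2P, a transcribed pseudogene known as an NRF2-induced RNA. Its level was -6.14 in HN4 against 1.03 in HN4/DDP, and -6.93 in HN30 against -2.21 in HN30/DDP. Both parental signals were not well above background and both resistant signals were. The differences of 7.17 (scanner SD 0.81) and 4.72 (scanner SD 1.45) therefore rest on signals at background. Set against the lowest signal well above background on the parental array, LOC344887 was at least 55.5-fold higher in HN4/DDP and at least 5.33-fold higher in HN30/DDP. It was the only member that was higher past 2 (log2), or 4-fold, in both lines. Under normexp background correction the differences were 3.95 and 1.44, the smallest of the 9 alternatives, and in HN30/DDP it then lay below 2. A probe 4808 bases away on the same strand, XLOC_l2_010029, had differences of 2.67 and -0.30 but was well above background on only 1 array.

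The thioredoxin arm was represented by TXNRD1 and SRXN1. TXNRD1 encodes cytosolic thioredoxin reductase, which uses NADPH to reduce thioredoxin. Its level was 0.53 in HN4 against 1.97 in HN4/DDP, and 1.17 in HN30 against 1.21 in HN30/DDP. HN4/DDP was the highest and HN4 the lowest, while the HN30 pair lay close together. The difference was 1.44 (scanner SD 0.20), or 2.71-fold, in HN4/DDP and 0.044 (scanner SD 0.20) in HN30/DDP, within the scanner error. Scaling to the array median turned the latter to -0.38. SRXN1 encodes sulfiredoxin, which repairs overoxidised peroxiredoxins. Its level was 4.29 in HN4 against 4.63 in HN4/DDP, and 4.72 in HN30 against 4.10 in HN30/DDP. The order of the pair was thus opposite in the lines, with differences of 0.34 (scanner SD 0.20) and -0.62 (scanner SD 0.20). Neither passed 1 in size at the main setting. The difference in HN30/DDP was -0.12 after quantile normalization and -1.04 after scaling to the array median.

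NQO1 and ME1 encode enzymes of NAD(P)H metabolism. NQO1 reduces quinones without passing through a semiquinone and is a classical readout of NRF2. Its level was 0.30 in HN4 against 0.47 in HN4/DDP, and 0.75 in HN30 against -1.05 in HN30/DDP. The lowest of the 4 arrays was HN30/DDP, and its parental line HN30 was the highest. The difference was 0.17 (scanner SD 0.20) in HN4/DDP and -1.80 (scanner SD 0.21), or 3.48-fold lower, in HN30/DDP, where 96.1% of genes had a larger difference. It lay between -2.22 and -1.55 over the alternatives. A probe for the noncoding gene lnc-NFAT5-1 on the opposite strand, 153 bases from the NQO1 probe, had differences of 1.02 and -0.85. ME1 encodes the cytosolic malic enzyme, a source of NADPH, and varied least of the targets. Its level was 0.59 in HN4 against 0.86 in HN4/DDP, and 0.83 in HN30 against 0.88 in HN30/DDP. The differences were 0.27 (scanner SD 0.20) and 0.042 (scanner SD 0.20), the latter turning to -0.38 when arrays were scaled to the median.

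OSGIN1, the oxidative stress-induced growth inhibitor 1, was higher in both resistant lines. Its level was -3.49 in HN4 against -1.85 in HN4/DDP, and -2.65 in HN30 against -1.72 in HN30/DDP. Both resistant arrays lay above both parental arrays. The difference was 1.63 (scanner SD 0.24), or 3.1-fold, in HN4/DDP and 0.93 (scanner SD 0.22), or 1.91-fold, in HN30/DDP. With normexp background correction these were 0.91 and 0.55, and scaling to the array median gave 0.51 in HN30/DDP. In HN4/DDP 4.78% of genes had a larger difference than OSGIN1, against 21.2% in HN30/DDP.

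**Figure D2:**
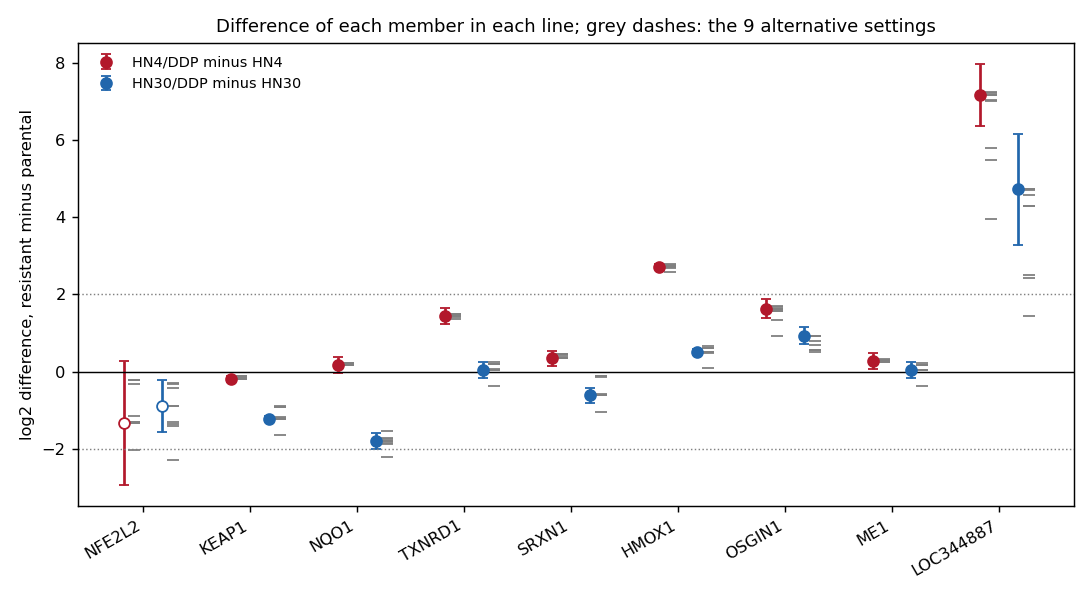
Difference of each member (log2, resistant minus parental) in HN4/DDP in red and HN30/DDP in blue, with bars of 1 scanner SD, and grey dashes for the 9 alternative settings. Open circles mark NFE2L2, which was not well above background on either array of the pair, and dotted lines mark 2 and -2. HMOX1 passes 2 in HN4/DDP alone, LOC344887 passes it in both lines, and no member passes -2 at the main setting.

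Of the 9 members, 8 were well above background on at least 1 array. Past 2 (log2) with a signal well above background on the resistant array, 2 members were higher in HN4/DDP, beside 3.61% of the 26853 genes, and 1 was higher in HN30/DDP, beside 8.37% of the 28330 genes. No member was lower past 2 and well above background on the parental array, beside 2.20% of genes in HN4/DDP and 2.75% in HN30/DDP. Past 1, or 2-fold, 4 members were higher in HN4/DDP (TXNRD1, HMOX1, OSGIN1 and LOC344887), beside 9.31% of genes. None was lower there, beside 8.65%. In HN30/DDP 1 member was higher past 1, beside 19.8% of genes, and 2 were lower (KEAP1 and NQO1), beside 13.3%. Because the members were chosen on these contrasts, nothing is read from these shares.

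The 7 targets had a median difference of 1.44 in HN4/DDP, with 7 of 7 above 0, and of 0.044 in HN30/DDP, with 5 above and 2 below 0. Over the alternatives these medians lay between 0.91 and 1.49 and between -0.38 and 0.26. Beside this, 44.1% of all genes were above 0 in HN4/DDP and 52.9% in HN30/DDP. For each of the 7 targets the difference was larger in HN4/DDP than in HN30/DDP, at the main setting and under the 9 alternatives. The gap between the lines was smallest for ME1 at 0.23, near the scanner SD, then OSGIN1 at 0.70, SRXN1 at 0.96, TXNRD1 at 1.39, NQO1 at 1.97, HMOX1 at 2.20 and LOC344887 at 2.46. The last value rests on signals at background, and KEAP1 had a gap of 1.03. Among the reference genes the same gap was 0.95 (HPRT1), 0.70 (GAPDH), 0.41 (TBP), 0.19 (PPIA), -0.011 (ACTB) and -0.77 (B2M). The members were chosen on these differences, so nothing is read from the count of 7. With 1 array per condition the gap between the lines has no test.

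Between the parental lines, HN30 was higher than HN4 by 0.16 for KEAP1, 0.45 for NQO1, 0.64 for TXNRD1, 0.43 for SRXN1, 0.23 for HMOX1, 0.83 for OSGIN1 and 0.24 for ME1. LOC344887 and NFE2L2 were not well above background in either parental line. Between the resistant lines the order was mostly the reverse. HN30/DDP was below HN4/DDP by a difference of -1.97 for HMOX1, -1.52 for NQO1, -0.87 for KEAP1, -0.76 for TXNRD1, -0.53 for SRXN1 and -3.24 for LOC344887. OSGIN1 and ME1 were nearly level there, at 0.13 and 0.015.

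The contrast of resistance with more than 1 array a side sets both resistant arrays against both parental arrays, blocked by line, and leaves 1 residual degree of freedom. Fitted with limma over 29521 genes, it called 0 of them (0%) at an adjusted p under 0.05. The smallest adjusted p was 0.382, and 2537 genes had an unadjusted p under 0.05. No p is given for a member. For the rest of the pathway, 68 genes of 6 lists were followed, of which 67 were on the array. By the same fit 0 of 67 passed, in either direction, and 12 had an unadjusted p under 0.05. Over these genes the median difference was 0.055 in HN4/DDP, with 36 of 65 above 0, and 0.015 in HN30/DDP, with 35 of 67 above 0. The genes named below are the leading ones of each list that were higher in both lines or lower in both lines.

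**Figure D3:**
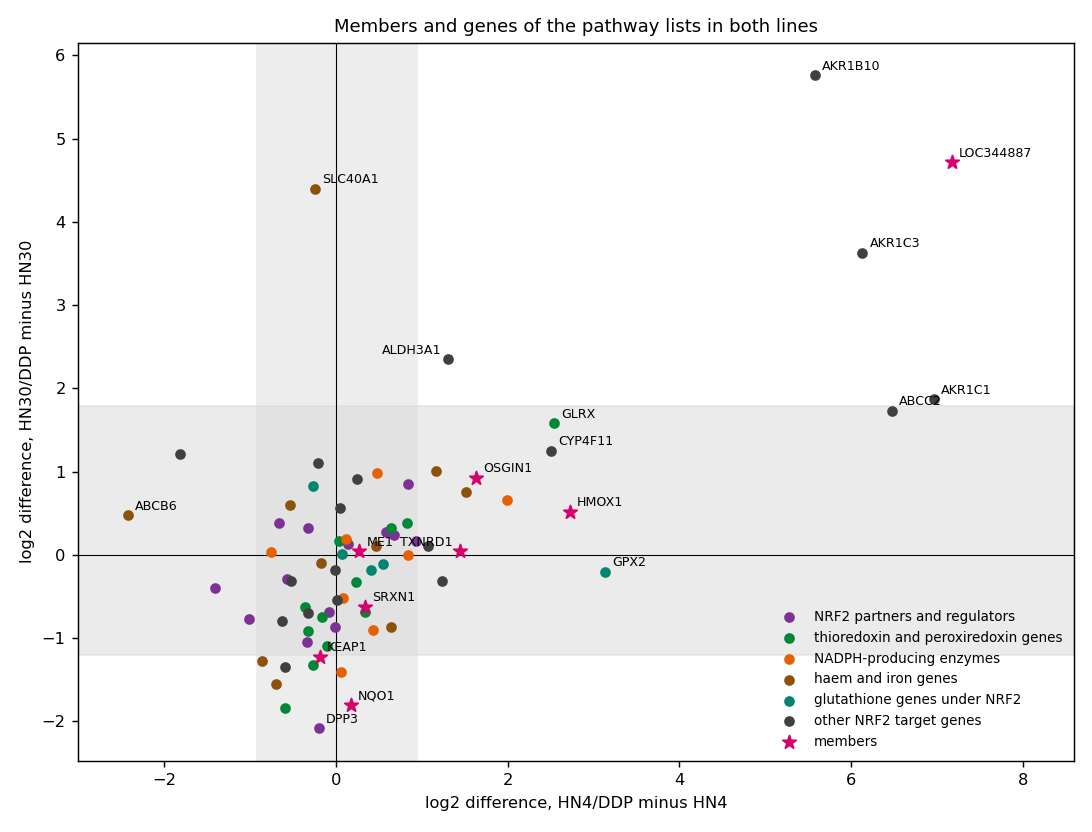
Difference (log2) in HN4/DDP on the horizontal axis against HN30/DDP on the vertical axis for the members (stars) and the genes of the 6 pathway lists (dots, coloured by list) that were well above background on at least 1 array. Grey bands hold the genes between the 10th and the 90th percentile of all genes in a line, from -0.92 to 0.94 for HN4/DDP and from -1.20 to 1.79 for HN30/DDP, and 1 gene is 1 point. LOC344887, AKR1B10, AKR1C3, AKR1C1 and ALDH3A1 lie above the upper edge of both bands.

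Partners and regulators of NRF2 were mixed, with a median of -0.14 in HN4/DDP and -0.08 in HN30/DDP over 14 genes, the latter between -0.50 and 0.27 over the alternatives. The small MAF partners MAFF (0.84 and 0.85) and MAFG (0.67 and 0.24) had differences above 0 in both lines. So had the KEAP1-binding autophagy receptor SQSTM1 (0.93 and 0.17) and the ubiquitin ligase SYVN1 (0.58 and 0.27). CUL3, the scaffold of the ligase that KEAP1 serves, had -1.01 and -0.77, and its second probe gave -1.94 and 0.44. The related factor NFE2L3 had -1.41 and -0.40. DPP3, which can bind KEAP1, was at -2.08 in HN30/DDP and at -0.20 in HN4/DDP, and was singled out after its values were seen.

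Thioredoxin and peroxiredoxin genes had a median of -0.032 in HN4/DDP and of -0.65 in HN30/DDP, where 8 of 12 were below 0. The latter median lay between -1.07 and -0.33 over the alternatives, and the former turned to 0.15 when probes were averaged per gene. The 6 reference genes had a similar median in HN30/DDP, -0.60, with 5 of 6 below 0. GLRX, a glutaredoxin that removes glutathione from proteins, was at 1.5 in HN4 against 4.04 in HN4/DDP, and 1.5 in HN30 against 3.08 in HN30/DDP. Both resistant arrays were thus above both parental ones. Its differences of 2.54 (scanner SD 0.20) and 1.58 (scanner SD 0.20) gave an adjusted p of 0.471 in the limma fit. The sestrin SESN2 had 0.83 and 0.38, the peroxiredoxin PRDX5 had 0.64 and 0.32, and TXNRD3 had 0.035 and 0.17. PRDX4, the peroxiredoxin of the endoplasmic reticulum, had -0.59 and -1.84. The mitochondrial thioredoxin reductase TXNRD2 had -0.36 and -0.62, but its second probe, well above background on all 4 arrays, gave 1.24 and -2.17.

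Enzymes that make NADPH, the group of ME1, had a median of 0.12 in HN4/DDP over 7 genes and 0.02 in HN30/DDP over 8 genes, the latter -0.40 with scaling to the array median. TKT, a transketolase of the pentose phosphate pathway, had 0.48 and 0.99, with an adjusted p of 0.536 by limma. IDH2 had 0.12 and 0.19.

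Haem and iron genes, the group of HMOX1, had a median of -0.17 in HN4/DDP over 9 genes and 0.29 in HN30/DDP over 10 genes, the latter turning to -0.13 with scaling to the array median and reaching 0.61 with the brightness trend taken off. BLVRB, a biliverdin reductase, had 1.17 and 1.01. FTL, the light chain of the iron store ferritin, had 1.52 and 0.75, and its other 2 probes gave 1.36 to 1.60 and 0.67 to 0.75. The haem transporter SLC48A1 had 0.47 and 0.11, and its second probe gave 0.10 and 0.10. The transferrin receptor TFRC had -0.70 (scanner SD 0.06) and -1.55 (scanner SD 0.06), and FECH, which puts iron into haem, had -0.86 and -1.27. A second FECH probe, well above background on all 4 arrays, gave -1.62 and -0.59. The limma adjusted p was 0.499 for BLVRB, 0.53 for FTL and 0.528 for TFRC. ABCB6, a porphyrin transporter, had differences of -2.42 and 0.48. The iron exporter SLC40A1 was well above background in HN30/DDP alone, there at least 4.32-fold higher. Both were singled out after their values were seen.

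The 5 glutathione genes under NRF2 had a median of 0.41 in HN4/DDP and -0.11 in HN30/DDP, the latter between -0.53 and 0.14 over the alternatives. GCLC, the catalytic subunit of the first enzyme of glutathione synthesis, had 0.072 and 0.015. To complete the list, GCLM had -0.27 and 0.83, and SLC7A11 had 0.55 and -0.11. GSR had 0.41 and -0.18, with 0.72 and -0.43 from a second probe. The glutathione peroxidase GPX2, singled out after its values were seen, was at -3.81 in HN4 against -0.68 in HN4/DDP, and -4.02 in HN30 against -4.21 in HN30/DDP. It stood out in HN4/DDP alone, with differences of 3.13 (scanner SD 0.26) and -0.20 (scanner SD 0.33), and its adjusted p in the limma fit was 0.709.

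Of the 6 pathway lists, that of other NRF2 target genes held the largest difference in each line. The list had a median of 0.15 in HN4/DDP and 0.73 in HN30/DDP over 18 genes, the latter between 0.31 and 0.90 over the alternatives. Higher past 2 were 5 of 18 in HN4/DDP, beside 3.61% of all genes, and 3 of 18 in HN30/DDP, beside 8.37%. The list was drawn up with earlier results of these data known, so nothing is read from these shares. AKR1B10, an aldo-keto reductase, was at -4.67 in HN4 against 0.91 in HN4/DDP, and -5.19 in HN30 against 0.56 in HN30/DDP. Both resistant arrays lay far above both parental arrays, by 5.58 and by 5.76, the latter at least 36.5-fold, and its adjusted p in the limma fit was 0.382. AKR1C3 was higher in both resistant lines, by 6.13 and 3.63 (adjusted p by limma 0.398). AKR1C1, a close relative, was higher by 6.96, at least 92.8-fold, and by 1.87 (adjusted p by limma 0.51), and another probe, well above background on 2 arrays, gave 5.50 and 2.92. Whether RNA of one relative binds probes of the other was not tested. ABCC2, an efflux pump of conjugated compounds, was higher by 6.47 and 1.73 (adjusted p by limma 0.512), and its second probe, well above background on 2 arrays, gave 0.85 and 0.26. UGDH (-0.63 and -0.79) and CBR3 (-0.59 and -1.34) had differences below 0 in HN4/DDP and HN30/DDP.

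**Figure D4:**
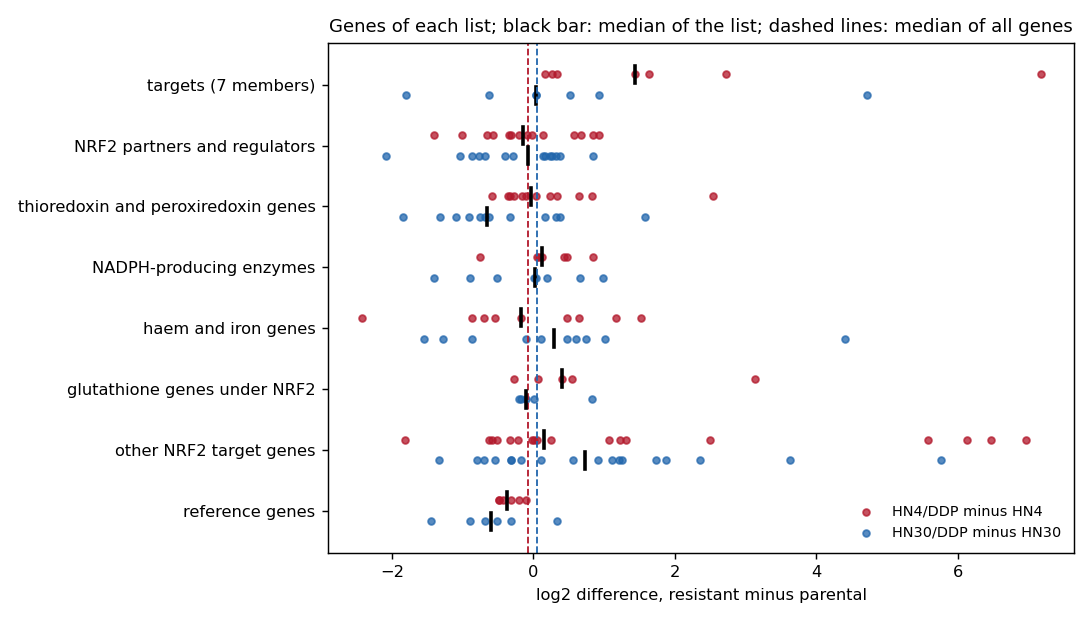
Differences (log2, resistant minus parental) of the 7 targets, the 6 pathway lists and 6 reference genes, 1 dot per gene that was well above background on at least 1 array of the pair, in HN4/DDP (red) and HN30/DDP (blue). Black bars are medians of a list and dashed lines the medians of all genes, -0.077 and 0.057. The targets have medians of 1.44 and 0.044, and the thioredoxin and peroxiredoxin genes in HN30/DDP have -0.65, beside -0.60 for the reference genes.

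Outside these lists, genes were ranked by how closely their 4 levels, centred on their own mean, followed the median pattern of the 7 targets. Among 22065 genes well above background on all arrays, the nearest by Euclidean distance were TSPAN12 (0.11), CSRP2 (0.12), ATP6V1B1-AS1 (0.14), lnc-NUAK2-1 (0.15) and CIDECP (0.16). Of the targets themselves TXNRD1 was nearest to that median at 0.18 and LOC344887 farthest at 5.71, a value that rests on its parental signals at background. TSPAN12 had differences of 1.19 in HN4/DDP and 0.0095 in HN30/DDP. With 4 arrays, this likeness is a description.

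The promoters of the members were read from RefSeq (GRCh38.p14), in windows from 250 bases before to 50 after a start site. Of the 9 members 7 had 10 windows in the table, and HMOX1 and NMRAL2P had no entry. The core of the antioxidant response element, TGAC and GC with any 3 bases between them, was sought on both strands. It was found in 4 of the 10 windows (40%), beside 13.3% of all 35116 windows and 18.1% of the 72 windows of the pathway lists. The 4 were the second of the 2 KEAP1 windows, the 2 TXNRD1 windows and the ME1 window. TXNRD1 and ME1 are printed because they hold the core and yet had unlike values in HN4/DDP, 1.44 and 0.27. Capitals mark each match, in either direction. The windows lie at chr12:104215529-104215828 and chr12:104286782-104287081 (TXNRD1, plus strand) and at chr6:83431002-83431301 (ME1, minus strand).
TXNRD1, first window: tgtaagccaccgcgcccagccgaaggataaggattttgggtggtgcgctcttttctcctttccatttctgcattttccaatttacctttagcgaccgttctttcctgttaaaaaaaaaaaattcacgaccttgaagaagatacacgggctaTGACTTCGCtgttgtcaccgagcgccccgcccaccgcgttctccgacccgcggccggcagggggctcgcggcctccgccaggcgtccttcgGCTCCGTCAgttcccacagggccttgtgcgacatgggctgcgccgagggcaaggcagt
TXNRD1, second window: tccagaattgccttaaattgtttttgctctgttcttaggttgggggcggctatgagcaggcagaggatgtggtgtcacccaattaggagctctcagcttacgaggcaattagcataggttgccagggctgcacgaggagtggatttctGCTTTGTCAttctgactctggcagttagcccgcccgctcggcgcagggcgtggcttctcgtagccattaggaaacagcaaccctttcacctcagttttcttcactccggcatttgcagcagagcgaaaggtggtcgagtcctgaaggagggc
ME1: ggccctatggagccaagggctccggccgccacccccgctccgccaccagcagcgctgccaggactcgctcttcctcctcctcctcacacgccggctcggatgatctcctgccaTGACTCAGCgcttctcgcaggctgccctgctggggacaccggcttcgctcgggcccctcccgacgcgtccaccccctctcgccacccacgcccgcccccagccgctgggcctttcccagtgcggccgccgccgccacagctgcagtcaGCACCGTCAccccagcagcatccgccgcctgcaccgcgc
The first match in the ME1 window begins at position -137 from the start site, and that in the second TXNRD1 window at -102. The windows of NFE2L2, NQO1, SRXN1 and OSGIN1 and the first KEAP1 window did not hold these letters. Sequence more than 250 bases before a start site was not searched, so an element further away would be missed. A match shows where the letters stand and not that NRF2 binds there.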

How the data were processed

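One Agilent human expression array (1-colour, Cy3) per line was deposited as scanner output of Feature Extraction 10.7.1.1 with hg19 probe coordinates. The authors deposited the processed intensity of each spot, which the software had background-subtracted, and a table of log2 values, used only as an alternative. The sources used here do not give its normalization. Here, log2 intensity minus the array's 75th percentile was computed, outlier spots were dropped, spots of a probe were averaged, and a gene took its probe with the highest mean. All 4 arrays shared 1 slide and 1 scan. The contrast over both lines was fitted with limma 3.58.1 (eBayes with trend, cell line as a block, Benjamini-Hochberg over 29521 genes), and the fit was tested on simulated data with an equal spread in every gene. Other steps used Python 3.11.15 and pandas 2.3.3. From each pathway list, up to 4 genes higher in both lines and up to 2 lower in both were named, ranked by the smaller of their differences, except 1 gene that is not reported here. The members, the lists and this rule were chosen with earlier results of these data known. The number of arrays limits the precision. No chance test of the lists was run.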

Additional observations from a re-analysis of the deposited data

Results flagged for a closer look

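UGT1A6, a glucuronosyltransferase of the list of other NRF2 target genes, moved in opposite directions in the lines, with a difference of -1.82 (log2) in HN4/DDP and 1.21 in HN30/DDP. Its level was 2.87 in HN4 against 1.04 in HN4/DDP, and 0.011 in HN30 against 1.23 in HN30/DDP, so the resistant arrays lay close together and the parental arrays far apart. A second probe gave -1.84 and 0.77. No test was made of the gap between the lines, and genes of the UGT1A cluster share exons, so which of them the probes read is uncertain.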

How the results depend on the processing

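At the main setting 2 members were higher past 2 in HN4/DDP, 1 in HN30/DDP and 0 were lower in HN30/DDP. A threshold of 1 gave 4 higher members in HN4/DDP, while 2 were lower in HN30/DDP. Requiring a signal well above background on both arrays left 1 higher in HN4/DDP and 0 in HN30/DDP, because LOC344887 was dim on the parental arrays. Normexp background correction gave 0 higher in HN30/DDP, and scaling to the array median gave 1 lower in HN30/DDP, NQO1 at -2.22. The cause of the last pair was not tested. The other 38 of 44 counts of members were within 1.5 times their main value. Of 162 differences of members, 127 moved by less than the scanner SD and 35 by more. The limma count was 0 under its 4 alternatives. Replicate numbers pair no arrays here, each group holding 1 array. The limma fit pairs arrays by cell line instead, and its count was 0 without that block too. Leaving out a replicate would have left a group with no array. Signals near background, those of NFE2L2 and of LOC344887 in the parental lines, limit what the array shows.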
